A study of Mus musculus with 6 samples.

Results

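The genes described here are 10 transcriptional regulators of the cell cycle in mouse embryo fibroblasts: the E2F family members E2f1, E2f3, E2f4, E2f6 and E2f8, the pocket protein genes Rb1, Rbl1 and Rbl2, the B-Myb gene Mybl2 and Foxm1. They were chosen by name, but with earlier results of these data known. Their counts beside the shares of all genes are therefore a description only. Every probe set annotated with exactly 1 of these symbols was taken, which gave 17 probe sets, and all 10 genes were measured, of 12393 genes on the array that a probe set names alone. Each of 6 Affymetrix arrays was hybridised with RNA from 1 line. The chromosomally unstable lines were 2 BubR1 H/H lines and 1 CDC20 AAA/AAA line. The BubR1 H/H lines carry hypomorphic alleles of BubR1, a protein of the spindle checkpoint, and are wild type for CDC20. The CDC20 AAA/AAA line is wild type for BubR1. Its allele of CDC20, an activator of the ligase that ends mitosis, is also called hypomorphic by the labels. The stable lines were 2 BubR1 +/+ lines and 1 CDC20 +/+ line, all wild type at both loci. All 6 were fibroblast cultures of 2 passages in 1 medium, under 1 treatment. The titles give 1 unstable and 1 stable line the same number, and these are called pairs: 9515 and 9938 hold the BubR1 lines, 10074 the CDC20 lines. The CDC20 mutation is thus represented by a single line, and the labels say neither the age of the embryos nor whether each line had an embryo of its own, so a p-value here reflects only how much these lines vary.

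As background, E2F factors bind with DP partners to the promoters of genes for DNA replication. Pocket proteins, of which Rb1 encodes the retinoblastoma protein, hold them back until cyclin-dependent kinases phosphorylate the pocket protein in late G1. In resting cells the pocket proteins of Rbl1 and Rbl2 (p107 and p130) join E2F4 and the MuvB core in a repressor complex called DREAM. In cycling cells MuvB instead binds B-Myb and then FoxM1 and activates genes of G2 and mitosis. E2f1, E2f8, Rbl1, Mybl2 and Foxm1 are themselves induced as cells enter the cycle, whereas the product of Rbl2 is most abundant in resting cells.

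All values are GCRMA values on the log2 scale, so a difference of 1 is a change of 2-fold. Array medians lay between 6.156 and 6.197. The targeted gene Bub1b measured 6.15, 6.43 and 7.00 in BubR1 H/H 9515, BubR1 H/H 9938 and CDC20 AAA/AAA 10074, against 7.81, 8.51 and 7.61 in the stable lines, and Cdc20 10.74, 10.34 and 10.03 against 10.85, 11.15 and 10.83. All 10 fibroblast markers, among them Col1a1, Vim and Pdgfrb, were measured between 8.28 and 13.72 in every line, against 2.24 to 4.31 for the 4 endothelial markers. Of the 5 epithelial markers Cdh1 and Epcam were at most 3.58 and 2.77, but the keratin genes reached higher, with Krt18 between 5.93 and 7.02 in all lines, Krt7 up to 5.32 and Krt8 up to 4.97. The 14 macrophage and leukocyte markers were detected in all lines, and their summed level on the log2 scale was 12.54, 14.98 and 14.09 in unstable lines and 12.98, 14.84 and 14.90 in stable lines of pairs 9515, 9938 and 10074. Unstable minus stable, 14 of the 14 were lower in pair 10074 with a median of -1.20, against medians of -0.18 and 0.17 in pairs 9515 and 9938. Their part in the results that follow was not tested. RNA came from whole cultures, in which fewer cycling cells and less RNA per cycling cell cannot be told apart.

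The first comparison set the 3 unstable against the 3 stable lines. The largest differences were in genes that were lower in unstable lines: E2f8 by 0.76, Foxm1 by 0.74, Mybl2 by 0.71 and Rbl1 by 0.61 on the log2 scale. The pocket protein genes Rbl2 and Rb1 lay higher, by 0.38 and 0.24, and E2f1, E2f3, E2f4 and E2f6 lay lower by 0.14 to 0.33. None of these differences passed the test. Of the 10 genes 0 had an adjusted p under 0.05 by limma, as did 0% of all 8382 genes tested, and the adjusted p of each of the 10 was 0.999. At an unadjusted p under 0.05 stood 3 lower genes, E2f8, Mybl2 and Foxm1, and 1 higher gene, Rbl2, beside 2.93% and 1.35% of all genes. When the pair number entered the fit as a block there were 4 lower genes, now with Rbl1, beside 6.92% of all genes, and 1 higher gene, Rbl2, beside 5.24%. The smallest adjusted p of the 10 was then 0.26 by limma, so again 0 passed. Without the block, the count of 4 was 0 without pair 9938, and 2 without pair 9515, pair 10074, the unstable line of 9938, the stable line of 9938 or the unstable line of 10074. Errors and p-values given below for single genes include spread between pairs, being, unless stated, from the fit without the block. With it, the SEs of E2f8, Rbl2, Mybl2 and Foxm1 were 0.14, 0.11, 0.18 and 0.16. Their adjusted p by limma was then 0.26, 0.31, 0.29 and 0.26.

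Lower in the unstable line of all 3 pairs were 7 of the 10 genes, against 19.3% of all genes tested, and higher in all 3 were 2 of 10, against 16.9%. E2f4 and E2f6 count among the 7 although their differences in pair 9515 were only -0.016 and -0.007. Groups did not overlap for 4 lower genes, E2f8, Rbl1, Mybl2 and Foxm1, against 6.41% of all genes, and for 1 higher gene, Rbl2, against 3.54%. The median difference over the 10 genes was -0.27, beside -0.009 over all genes tested, and it was -0.16 without the unstable line of pair 9938. By pair, the median was -0.11 in 9515, -0.50 in 9938 and -0.34 in 10074.

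**Figure D1:**
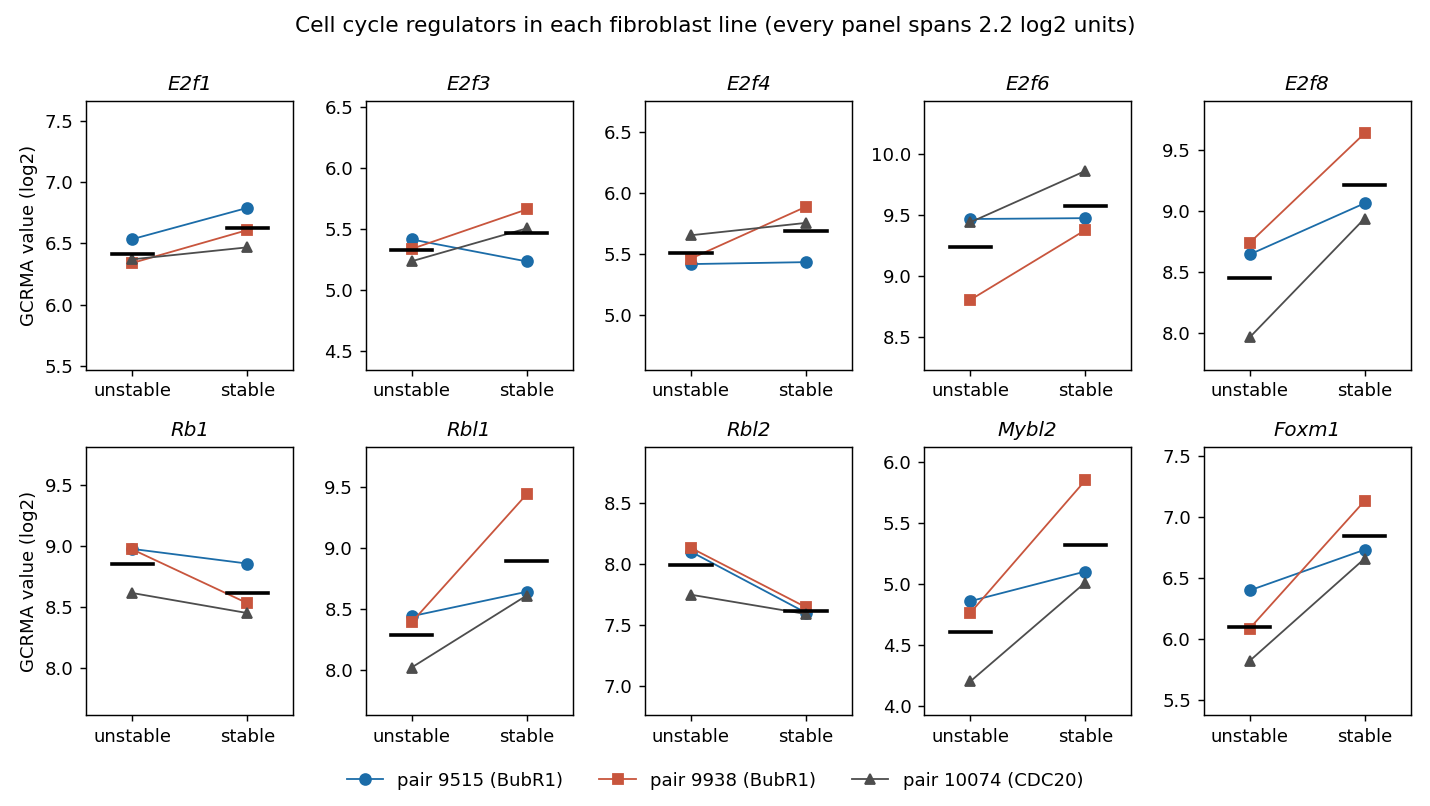
GCRMA values on the log2 scale (vertical axes, each spanning the same range) of the 10 regulators in unstable (left) and stable (right) lines, each by its brightest probe set. Coloured points are single lines, joined within a pair, and black bars are means of 3 lines; E2f8, Rbl1, Mybl2 and Foxm1 lie lower in all 3 unstable lines than in any stable line, and Rbl2 higher.

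The promoters of the 4 regulators with a listed window and no overlap between the groups are shown, so that the E2F and MuvB words near their start sites can be read beside the values. Windows run from 250 bases before to 50 after the annotated start site and were taken from RefSeq on the build GRCm38.p6. Of the 10 genes 7 were matched in that table, E2f1, E2f3, E2f6, E2f8, Rbl1, Rbl2 and Mybl2, with 8 windows in all; Foxm1, Rb1 and E2f4 had no entry. Mybl2 lies on the plus strand at chr2:163054385-163054684, E2f8 on the minus strand at chr7:48881547-48881846, Rbl1 on the minus strand at chr2:157204485-157204784 and Rbl2 on the plus strand at chr8:91069807-91070106. A window's start site need not be the outermost start annotated for its gene: that of Rbl1 and Rbl2 is, whereas that of Mybl2 lies 308 bases, of E2f8 477 bases, of E2f1 466 bases, of E2f6 56 bases and of 1 of the E2f3 windows, that with 2 cores, 1673 bases downstream of it. Capitals mark matches to the E2F and CHR motifs defined in the next paragraph.
Mybl2: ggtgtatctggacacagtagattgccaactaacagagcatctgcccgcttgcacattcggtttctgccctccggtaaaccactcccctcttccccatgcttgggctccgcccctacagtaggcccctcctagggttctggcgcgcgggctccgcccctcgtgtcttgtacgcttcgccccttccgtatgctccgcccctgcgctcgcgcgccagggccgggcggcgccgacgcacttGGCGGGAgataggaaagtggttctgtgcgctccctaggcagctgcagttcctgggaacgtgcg
E2f8: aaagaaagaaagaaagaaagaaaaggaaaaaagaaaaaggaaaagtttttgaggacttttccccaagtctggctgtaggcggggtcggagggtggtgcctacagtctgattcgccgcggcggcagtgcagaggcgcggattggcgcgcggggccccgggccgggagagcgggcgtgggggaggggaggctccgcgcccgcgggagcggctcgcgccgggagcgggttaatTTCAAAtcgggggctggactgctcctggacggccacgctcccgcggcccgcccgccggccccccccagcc
Rbl1: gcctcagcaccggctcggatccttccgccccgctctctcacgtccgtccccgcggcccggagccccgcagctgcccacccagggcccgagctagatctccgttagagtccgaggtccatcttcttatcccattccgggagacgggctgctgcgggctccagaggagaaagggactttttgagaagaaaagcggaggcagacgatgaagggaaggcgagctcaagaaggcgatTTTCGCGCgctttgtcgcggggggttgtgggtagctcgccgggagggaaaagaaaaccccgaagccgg
Rbl2: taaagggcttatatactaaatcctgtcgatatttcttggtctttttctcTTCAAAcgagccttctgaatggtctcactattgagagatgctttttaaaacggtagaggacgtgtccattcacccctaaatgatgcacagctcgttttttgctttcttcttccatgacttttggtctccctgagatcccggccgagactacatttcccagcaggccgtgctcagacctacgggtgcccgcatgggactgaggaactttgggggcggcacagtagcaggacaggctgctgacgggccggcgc

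Matches were searched on both strands for the E2F octamer, spelled TTTGGCGC, TTTGCCGC, TTTCGCGC or TTTCCCGC, for the E2F core GGCGGGA, which can overlap TTTCCCGC read on the other strand, and for TTTGAA, the cell cycle homology region (CHR) to which MuvB binds. The Mybl2 window held 1 E2F core, from base -13 to -7 relative to the start site of the window. That of Rbl1 held 1 octamer from -18 to -11, and that of E2f8 held 1 CHR match from -20 to -15. In the Rbl2 window there was 1 CHR match, far upstream at -201 to -196, and no E2F word. Of the 2 E2f3 windows 1 held an octamer, a core and a CHR match between -23 and -4, and the other held 2 cores, while the E2f6 window and the single E2f1 window, downstream of the outermost E2f1 start, held no match. Among 32851 windows of all genes, 2.26% held an octamer, 11.3% a core and 17.9% a CHR match. The motifs were chosen after the windows had been seen, so these shares are no test of the matches. A match, or its absence, describes the letters of these windows only, and bases outside them were not searched.

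**Figure D2:**
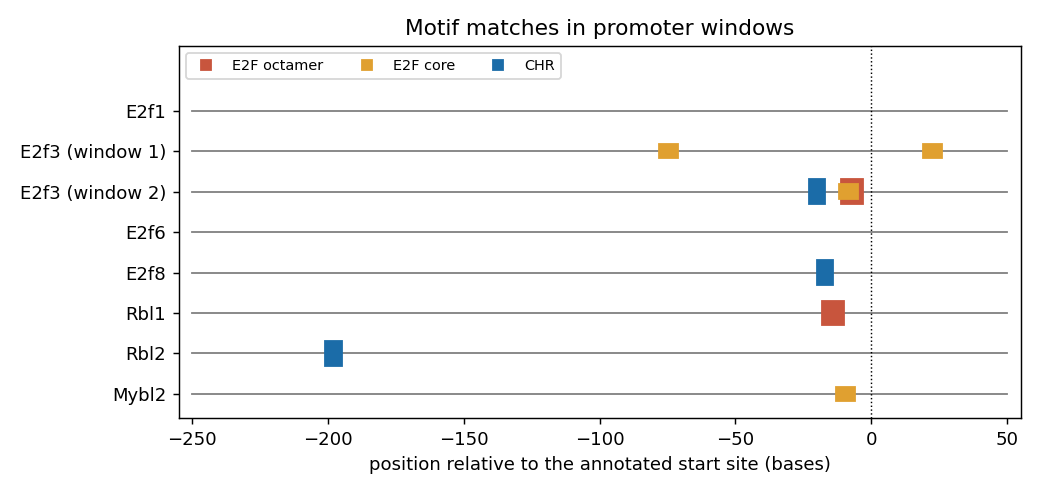
Positions of motif matches in the 8 promoter windows of 7 regulators, with the horizontal axis in bases from the annotated start site (dotted line), which for Mybl2, E2f8, E2f6, E2f1 and 1 E2f3 window lies downstream of the gene's outermost start. Red boxes are E2F octamers, yellow boxes E2F cores and blue boxes CHR words; the matches of Mybl2, E2f8 and Rbl1 lie within 20 bases before the start, and that of Rbl2 at -201.

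E2f8 encodes an atypical E2F that binds DNA without a DP partner and represses E2F targets late in S phase. In the order 9515, 9938 and 10074, which holds for all values that follow, it measured 8.65, 8.74 and 7.97 in unstable lines, against 9.06, 9.64 and 8.94 in stable lines. Each unstable line was below every stable line, and the CDC20 AAA/AAA line was the lowest. The means were 8.45 ± 0.42 and 9.21 ± 0.37 (SD, n = 3 each), a difference of -0.76 (SE 0.27), which is 1.70-fold lower. This difference ranked 45 from the lowest among 8382 genes, and its adjusted p by limma was 0.999. E2f8 had 1 probe set, so no second reading was at hand.

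E2f1, the best known activator of entry into S phase, measured 6.54, 6.34 and 6.37 in unstable lines, against 6.79, 6.61 and 6.47 in stable lines. It was lower in each pair, but the highest unstable line, that of 9515, lay above the stable line of 10074. The difference was -0.21 (SE 0.12), or 1.15-fold lower, and -0.12 without the stable line of 9515. The second E2f1 probe set, nearer the detection floor, read 4.15, 4.13 and 4.34 in unstable and 4.33, 4.36 and 4.18 in stable lines, and its sign in pair 10074 was the opposite one.

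E2f3, the other activator measured, read 5.42, 5.34 and 5.24 in unstable and 5.24, 5.66 and 5.51 in stable lines. Its pair differences of 0.18, -0.32 and -0.27 differ in sign, and the mean of -0.14 (SE 0.13) was -0.04 without the stable line of 9938 or without that pair, and -0.30 without pair 9515. E2f4, the E2F that carries most repression in resting cells, measured 5.42, 5.46 and 5.65 against 5.43, 5.88 and 5.75. It differed by -0.18 (SE 0.15), by -0.06 without pair 9938, by -0.08 without its stable line and by -0.31 without the stable line of 9515. Neither gene separated the groups.

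E2f6 represses genes without binding pocket proteins, in a complex with Polycomb proteins. It measured 9.46, 8.80 and 9.44 in unstable lines and 9.47, 9.37 and 9.86 in stable lines. The unstable line of 9938 stood below all others, and pair 9515 hardly differed. The difference of -0.33 (SE 0.23) was -0.12 without that unstable line of 9938, -0.19 without the stable line of 10074 and -0.21 without pair 9938.

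The 3 pocket protein genes did not share a direction. Rbl1, which encodes p107 and is an E2F target, measured 8.44, 8.39 and 8.02 in unstable lines, against 8.64, 9.44 and 8.61 in stable lines. All unstable lines were below all stable lines, with the stable line of 9938 far above the rest. The difference was -0.61 (SE 0.26), or 1.53-fold lower, but -0.34 without the stable line of 9938 and -0.39 without pair 9938. A second Rbl1 probe set was lower in each pair too, by 0.39, 0.76 and 0.28, with groups that overlapped.

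Rbl2, which encodes p130, measured 8.10, 8.13 and 7.75 in unstable lines, against 7.60, 7.64 and 7.59 in stable lines. The stable lines were nearly equal, and each unstable line lay above all of them. The means were 7.99 ± 0.21 and 7.61 ± 0.03 (SD, n = 3 each), a difference of 0.38 (SE 0.13) or 1.30-fold higher, with an adjusted p of 0.999 by limma. Its second probe set gave 5.05, 4.73 and 4.93 against 4.33, 4.50 and 4.58, again without overlap. Pair differences were 0.50, 0.48 and 0.16 by the first and 0.72, 0.23 and 0.35 by the second probe set for pairs 9515, 9938 and 10074.

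Rb1 measured 8.97, 8.97 and 8.61 in unstable lines and 8.85, 8.53 and 8.45 in stable lines. It was higher in each pair, by 0.12, 0.44 and 0.16, yet the unstable line of 10074 lay below the stable line of 9515. The difference was 0.24 (SE 0.16), and between 0.14 (without pair 9938) and 0.36 (without the stable line of 9515) when lines or pairs were left out.

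Mybl2 encodes B-Myb, which joins MuvB in S phase and prepares the promoters of mitotic genes. It measured 4.86, 4.76 and 4.20 in unstable lines, against 5.10, 5.84 and 5.01 in stable lines. All unstable lines were below all stable lines, by the least in pair 9515. The means of 4.61 ± 0.35 and 5.32 ± 0.46 (SD, n = 3 each) differed by -0.71 (SE 0.28), which is 1.64-fold lower and ranked 67 from the lowest of 8382, with an adjusted p of 0.999 by limma. The difference was -0.45 without the stable line of 9938. Mybl2 lay near 4, the value used as the detection floor. Its second probe set gave pair differences of -0.44, -1.04 and -0.81, beside -0.24, -1.08 and -0.81 by the first.

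Foxm1 encodes the forkhead factor that drives genes of G2 and mitosis. It measured 6.40, 6.09 and 5.82 in unstable lines, against 6.73, 7.13 and 6.66 in stable lines. The groups did not overlap, and the CDC20 AAA/AAA line was again the lowest. The means of 6.10 ± 0.29 and 6.84 ± 0.25 (SD, n = 3 each) differed by -0.74 (SE 0.20), or 1.67-fold, with an unadjusted p of 0.0091 and an adjusted p of 0.999 by limma. This probe set carries the suffix x, which marks probes that may also match other transcripts. Of the other 3 Foxm1 probe sets, the first gave -0.43, -0.83 and -0.59 in pairs 9515, 9938 and 10074 with no overlap, and the second gave -0.20, -1.04 and 0.06. The remaining one stayed between 1.46 and 1.90 in all lines, below the detection floor.

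**Figure D3:**
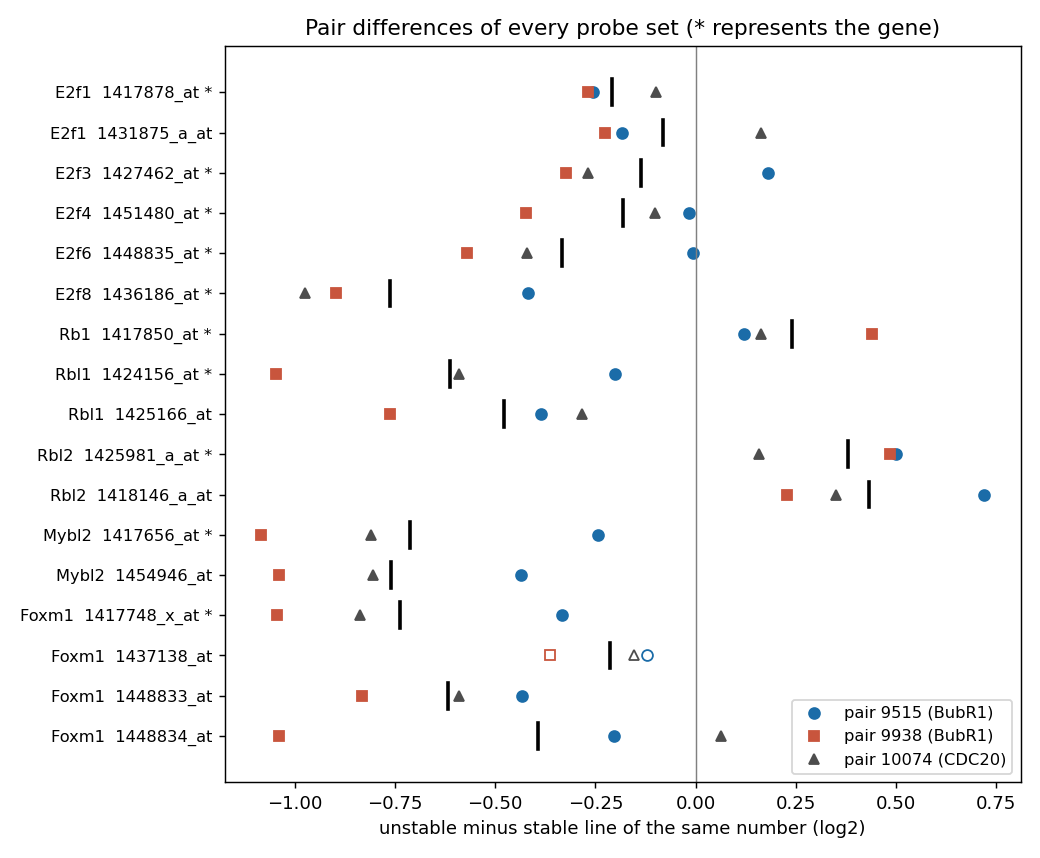
Difference between the unstable and the stable line of each pair on the log2 scale (horizontal axis) for all 17 probe sets of the 10 regulators, with black bars for means over 3 pairs and open symbols for the probe set below the detection floor. Of the 16 probe sets above the floor, 10 were lower in all 3 pairs, 3 were higher in all 3 (Rb1 and both of Rbl2) and 3 had mixed signs (1 each of E2f1, E2f3 and Foxm1).

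Among the 10 genes, 4 had closely similar profiles over the 6 arrays. Pearson's r was 0.99 between Mybl2 and Rbl1, 0.98 between Mybl2 and E2f8, 0.96 between Mybl2 and Foxm1 and 0.93 between Rbl1 and Foxm1. Rbl2 correlated with Mybl2 at -0.35 and with Foxm1 at -0.52, and most highly with Rb1, at 0.78. Lines of a pair share a number and all 6 arrays share the group difference, so these r values only describe the profiles. Outside the 10 genes, among 2438 genes with an SD of at least 0.25, the profile most like that of E2f8 was that of Asf1b, a histone chaperone gene, followed by Ncaph, a condensin subunit gene, and Ercc6l, with r of 0.99 for all 3. For Mybl2 they were the polymerase epsilon subunit gene Pole2, the thymidine kinase gene Tk1 and the anaphase spindle gene Prc1, also at 0.99 each. Foxm1 was most like the zinc transporter gene Slc30a1, the kinetochore gene Spc25 and the dynein gene Dnah11, at 0.99, 0.99 and 0.99. Rbl2 was most like Catsper2 at 0.99, the ceruloplasmin gene Cp at 0.95 and Hypk at 0.91, with differences of 0.74, 0.85 and 0.49.

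Binding partners of these factors had small median differences between unstable and stable lines. Of 14 E2F, DP and MuvB partner genes 9 were on the array and 7 passed the detection filter, of which 0 passed the test in either direction by limma, also 0 at an unadjusted p under 0.05, with a median difference of -0.04. Tfdp1, the main DP partner, differed by -0.23 (SE 0.12), with pair differences of -0.009, -0.53 and -0.14. The MuvB subunit gene Lin9 stood at -0.08, -0.69 and -0.05, so that pair 9938 made up most of its mean of -0.27 (SE 0.39). With the pair block the SE of Lin9 was 0.15. The other MuvB genes, Lin37 and Rbbp4, differed by 0.03 and 0.07, Rbbp7 by 0.01, E2f5 by -0.04 and Dyrk1a, the kinase that promotes DREAM assembly, by -0.05. These are values of the brightest probe sets. Another Rbbp4 probe set was higher in each pair, by 0.714, 0.305 and 0.178, with a mean of 0.40, and a further one differed by 0.06. The SE of the mean of 0.40 was 0.64 in the fit without the block, which counts spread between pairs as error. Myb and Mybl1 did not pass the detection filter, and E2f2, E2f7, Tfdp2, Lin52 and Lin54 were not analysed here. Among the partners of E2F6, 4 were tested, with 0 past the test by limma or at an unadjusted p under 0.05: Rnf2 at 0.15, Max at -0.05, Pcgf6 at -0.05 and Mga at 0.002. Smc1b and Stag3, germline genes known to be silenced through E2F6, did not pass the detection filter.

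Upstream of the pocket proteins, 14 of 15 genes for G1 cyclins, their kinases and kinase inhibitors were tested, 0 passed the test by limma and the median difference was -0.03. The cyclin E genes, which are E2F targets, were lower in each pair: Ccne1 by 0.62 (SE 0.15) and Ccne2 by 0.57 (SE 0.17), the only 2 of the 14 at an unadjusted p under 0.05, beside 2.93% of all genes lower and 1.35% higher at that threshold. The inhibitor genes differed in sign, with Cdkn2d at -0.51 (SE 0.26) and Cdkn2a, which encodes p16 and p19Arf, at 0.38 (SE 0.21). Higher in all 3 pairs were 4 of the 14, all of them inhibitor genes, beside 16.9% of all genes tested. Lower in all 3 were 5 of the 14, Cdkn2d among them, beside 19.3%.

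Genes known as targets of these factors had lower medians in unstable lines, with 0 of them past the test by limma. The lists were chosen with earlier results of these data known, so their shares beside those of all genes are a description only. Of 25 tested G1/S genes known as E2F targets all 25 had a lower mean in unstable lines, against 52.1% of all genes, and 24 were lower in each of the 3 pairs, against 19.3%. An unadjusted p under 0.05 was reached by 12, against 2.93% of all genes in the lower direction. The median was -0.49, and -0.22, -0.62 and -0.63 in pairs 9515, 9938 and 10074. Examples are the polymerase gene Pole at -0.74 (SE 0.16), Mcm10 at -0.76 (SE 0.17), the chromatin assembly gene Chaf1b at -0.67 (SE 0.19) and Cdc45, part of the replicative helicase, at -0.75 (SE 0.23). Of 28 tested G2/M genes known as targets of B-Myb-MuvB and FoxM1, all 28 had a lower mean, 25 were lower in every pair and 7 were lower at an unadjusted p under 0.05, against the same shares of 52.1%, 19.3% and 2.93% of all genes. Their median was -0.58, with -0.22, -0.67 and -0.76 by pair. Kif20a, a mitotic kinesin, differed by -0.67 (SE 0.17), the topoisomerase gene Top2a by -0.56 (SE 0.18), the mitotic kinase gene Cdk1 by -0.41 (SE 0.15) and its activating phosphatase gene Cdc25b by -0.61 (SE 0.23). E2f8, Foxm1, Mybl2 and Rbl1 had differences within the range of both target lists, which ran from -0.90 to -0.10 for G1/S and from -0.75 to -0.15 for G2/M genes, except that E2f8 at -0.76 lay just below the second. The smallest of the 3 pair differences was that of 9515 for each of these 4 regulators, and the medians of both lists were also smallest there.

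**Figure D4:**
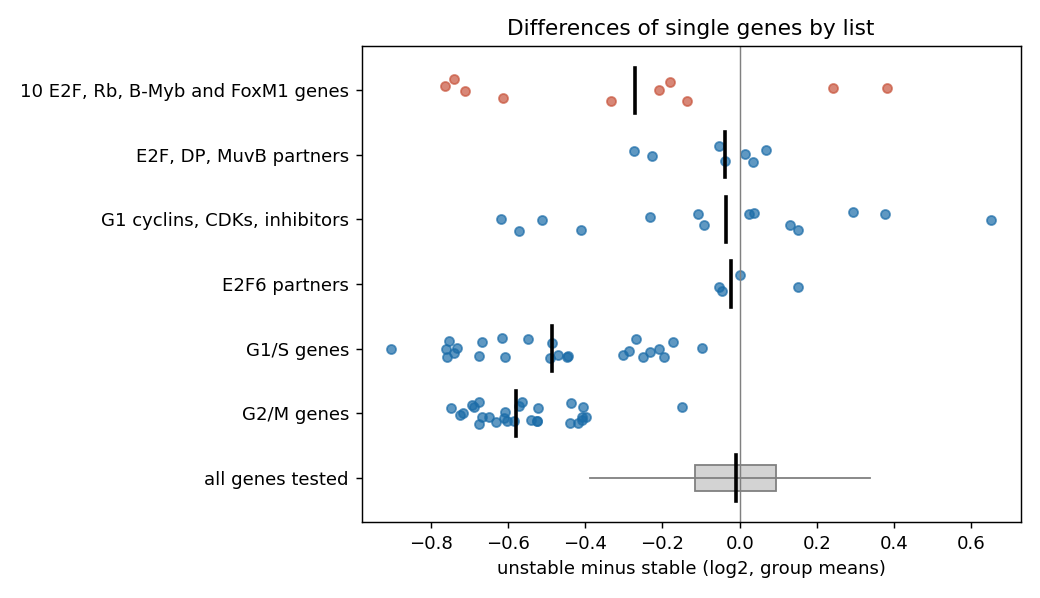
Unstable minus stable differences of group means on the log2 scale (horizontal axis) for single genes in 6 lists, with a black bar at each median, and for all 8382 genes as a box from the lower to the upper quartile with a line from the 5th to the 95th percentile, which are -0.39 and 0.34. The 10 regulators fall into a group of 4 near the G1/S and G2/M genes, 4 between -0.33 and -0.14, and 2 above 0.

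Within the BubR1 lines, 2 H/H lines were compared with 2 +/+ lines in a model with 4 genotype groups. Rbl2 was higher in H/H lines by 0.49 (SE 0.09) and Foxm1 lower by 0.69 (SE 0.21), both at an unadjusted p under 0.05. Mybl2, E2f8 and Rbl1 differed by -0.66 (SE 0.29), -0.66 (SE 0.23) and -0.62 (SE 0.31). By limma 0 of the 10 genes passed the adjusted threshold, as did 0% of all genes. The 2 genes at an unadjusted p under 0.05 stood beside 3.15% of all genes. That count was 7 without the stable line of 9515, 1 without the unstable line of 9515 or the stable line of 9938, and 0 without the unstable line of 9938. When pairs entered the fit as a block it was 5, made up of E2f8, Rbl1, Rbl2, Mybl2 and Foxm1, beside 8.58% of all genes. Again 0 passed the adjusted threshold. The fit with the block left little residual, so its p-values rest largely on the spread that limma shares over all genes.

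The CDC20 pair had no replicate and its differences are values only: -0.97 for E2f8, -0.84 for Foxm1, -0.81 for Mybl2, -0.59 for Rbl1 and 0.16 for both Rbl2 and Rb1. It is also the pair in which all 14 macrophage markers were lower, with a median of -1.20, and their part in these differences was not tested. Whether the BubR1 and CDC20 effects differ was tested as the difference of the 2 effects, with the single CDC20 lines assumed to vary like the BubR1 lines. By limma 0 of the 10 genes passed, as did 0% of all genes, and at an unadjusted p under 0.05 there were also 0 of the 10, beside 1.59% of all genes. By the brightest probe set of each gene the most divergent was Rbl2, whose effect was 0.33 (SE 0.16) higher for BubR1 than for CDC20. The second Rbl2 probe set gave only 0.13, and another Foxm1 probe set gave -0.69. For E2f8 the difference between effects was 0.32 (SE 0.40), for Foxm1 0.15 (SE 0.36), for Mybl2 0.15 (SE 0.51) and for Rbl1 -0.03 (SE 0.54). In this fit, made without the pair block, the differences of E2f8, Foxm1, Mybl2 and Rbl1 were each smaller in size than their errors. That of Rbl2 by its brightest probe set was larger than its error.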

How the data were processed

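The members and gene lists were chosen with earlier results of these data known. Per the labels' protocols, RNA from Trizol and column purification was amplified as cDNA and biotin-labelled. The authors ran GCRMA 2.28.0 in R 2.15.3, per the submitters' processing notes, which corrects background, normalizes arrays and summarizes probe sets. The values deposited by the authors are on the log2 scale, between 0.922 and 14.393, and were tested as they stand, so overall brightness differences between arrays had been removed. Scanner intensities were not analysed here. The small number of arrays limits precision, and sequencing depth does not apply to arrays.

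Of 22626 probe sets 20380 had 1 gene symbol in the platform annotation, 691 several and 1555 were not listed. Each of 12393 genes was represented by its probe set with the highest mean, and genes at 4 or more on at least 3 arrays, 8382 in all, were tested with limma 3.58.1 in R 4.3.3 (two-sided, Benjamini-Hochberg over all genes), without a block. The fit was also run on simulated data to check its estimates. How often it would call changes of the size seen here is not reported. The smallest p that an exact permutation test allows for 3 lines in each group is 0.1, so none was run.

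Deviations from the group means went together in lines of the same number, with correlations over genes of 0.81, 0.68 and 0.60 for pairs 9515, 9938 and 10074 and -0.67 to 0.15 for other combinations. The numbers, from the titles, were therefore taken as pairs. Genes were named by a fixed rule: all 10 regulators, all of their E2F, DP and MuvB partners, up to 4 genes of each other list by unadjusted p, and the 3 genes most like E2f8, Mybl2, Foxm1 and Rbl2. The promoter motifs were chosen after the windows had been seen. Alternatives were other filters, probe set rules, normalizations, priors, array weights, the pair block and leaving out lines or pairs.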

Additional observations from a re-analysis of the deposited data

Results flagged for a closer look

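Opposite signs between the BubR1 pairs and the CDC20 pair were seen in 2 of the 16 detected probe sets. The share of all probe sets with such signs was not computed, so this count is a description only. Unstable minus stable, the second E2f1 probe set was at -0.18 and -0.22 in pairs 9515 and 9938 and at 0.16 in pair 10074, so the BubR1 effect minus the CDC20 effect was -0.37. For 1 Foxm1 probe set the pair differences were -0.20, -1.04 and 0.06, and the difference between effects was -0.69. Neither passed by limma (adjusted p = 1.00 for both). Other probe sets of the same genes were lower in all 3 pairs, the second E2f1 set lies close to the detection floor, and the cause of the disagreement was not tested.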

How the results depend on the processing

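No regulator passed the adjusted threshold in the comparison of unstable with stable lines, within the BubR1 lines or between the 2 effects, and 0 passed under any of the 18, 16 and 13 alternatives that could be run, which says nothing about stability since none was called to begin with. With the pair number as a replicate block the counts were 0 in all 3 comparisons, and the smallest adjusted p of the 10 genes by limma, unstable minus stable, was 0.26. The directions of the 10 differences were kept in all 185 refits of single genes, but some of these refits could not change them. Other filters, the prior and the pair block leave the difference of a gene as it is. Median differences over the regulators ran from -0.40 to -0.16 when lines or pairs were left out and from -0.28 to -0.21 under the other alternatives. Foxm1 ran from -0.94 to -0.39 over all of them, E2f8 from -0.93 to -0.52, Mybl2 from -0.95 to -0.45, Rbl1 from -0.82 to -0.34 and Rbl2 from 0.31 to 0.50. E2f1 ran from -0.28 to -0.08. The filter of 5 on all 6 arrays removed Mybl2. Without pair 9515 or 9938 the BubR1 test had no residual, and without a CDC20 line the difference between effects could not be fitted.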
